A study of Mus musculus with 15 samples.

Results

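The genes described here are 8 genes of antigen presentation by major histocompatibility complex (MHC) class II, H2-Aa, H2-Ab1, H2-Eb1, Cd74, Ciita, H2-DMa, H2-DMb1 and H2-DMb2. They were found by an exact match of the gene symbol among the 24421 genes of each of the 3 deposited count tables, and all 8 were listed in every table. RNA had been sequenced in bulk from microglia, the resident macrophages of the brain, taken from the forebrain of mice by cell sorting on CD11b and an intermediate level of CD45. Wild-type C57BL/6J mice gave 1 library each from sham surgery and from days 1, 6, 14 and 28 after a middle cerebral artery occlusion (MCAO) of 60 minutes in male mice aged 8 to 24 weeks. Igf1-Egfp transgenic mice, in which EGFP reports on the growth factor gene Igf1, gave 1 EGFP-negative and 1 EGFP-positive library on day 6 and the same pair on day 14. The Yy1 experiment, also on day 6, set 3 libraries of Yy1flox/flox mice (floxed controls) beside 3 libraries of Cx3cr1-CreER;Yy1flox/flox mice (Yy1-deleted, as labelled). In the latter the Cre is driven from Cx3cr1, a gene that other myeloid cells also use. Cre was absent from the floxed controls, which means that Cre itself and the loss of Yy1 cannot be told apart, and no sham library of either floxed genotype was used here.

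Class II molecules are pairs of an alpha and a beta chain that show peptides from engulfed material to helper T cells. The chains assemble with the invariant chain, which blocks the groove until it is cut in the endosome, and the H2-DM heterodimer then exchanges its last fragment for a peptide. Transcription needs the coactivator CIITA, which acts through factors bound at the X and Y boxes of the promoters. Dendritic cells, B cells and activated macrophages express these genes strongly, while resting microglia hold little of them. C57BL/6 mice lack a working H2-Ea chain, so their I-E molecule is not built although H2-Eb1 is transcribed.

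Promoter stretches of 4 members are shown because CIITA acts at these promoters and each stretch holds a match to the core of at least one of both boxes. They are the bases from -130 to -31 relative to the start of transcription in RefSeq, on GRCm38.p6, each read on the gene's own strand, and capitals mark matches to the Y box core (ATTGG, or CCAAT on the other strand) and to the X box core AGNNACNG. The positions are chr17:34287854-34287953 (minus strand) for H2-Aa, chr17:34305737-34305836 (plus) for H2-Eb1, chr17:34153061-34153160 (plus) for H2-DMb1 and chr17:34145119-34145218 (plus) for H2-DMb2.
H2-Aa: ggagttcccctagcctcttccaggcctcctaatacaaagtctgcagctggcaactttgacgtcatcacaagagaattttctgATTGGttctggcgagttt
H2-Eb1: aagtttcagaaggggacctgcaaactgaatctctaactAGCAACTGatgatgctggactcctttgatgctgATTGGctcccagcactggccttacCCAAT
H2-DMb1: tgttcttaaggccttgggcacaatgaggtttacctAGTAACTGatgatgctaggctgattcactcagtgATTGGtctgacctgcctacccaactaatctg
H2-DMb2: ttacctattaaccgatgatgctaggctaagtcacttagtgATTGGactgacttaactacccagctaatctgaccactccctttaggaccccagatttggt
The Y box core began at -48 in H2-Aa, at -59 in H2-Eb1, at -61 in H2-DMb1 and at -90 in H2-DMb2, and H2-Eb1 held a second match at -35. An X box core stood upstream of it at -92 in H2-Eb1 and at -95 in H2-DMb1, and none was matched in the H2-Aa or H2-DMb2 window. H2-DMa had 2 promoter entries, with an X box core at -179 in one and a Y box core at -198 in the other. In all 32817 promoter windows of 300 bases on both strands, a Y box core was present in 37.4%, an X box core in 50.9%, and an X box core 15 to 60 bases before ATTGG in 2.28%. RefSeq entries were matched for 5 of the 8 members, not for H2-Ab1, Cd74 and Ciita.

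The genes of the H2 locus lie together on chromosome 17 of GRCm38 in the GENCODE M21 annotation. H2-Aa spans 34282744 to 34287823 on the minus strand, and on the plus strand H2-DMa spans 34119541 to 34139101, H2-DMb2 34143307 to 34151555, H2-DMb1 34153072 to 34160230, H2-Ab1 34257689 to 34269419 and H2-Eb1 34305867 to 34316674. Ciita lies on chromosome 16 at 10480059 to 10528418, plus strand. H2-DMb1 and H2-DMb2 share 369 distinct stretches of 50 exonic bases, 22.7% of those of H2-DMb1 and 21.2% of those of H2-DMb2, so the split of reads between these 2 genes is uncertain. H2-DMa shares 360 exonic bases (10.4% of its length) with Brd2 on the opposite strand, and Ciita shares 329 (3.45%) with Dexi. The sources used here do not state whether strand was used in counting, so reads in those stretches cannot be told apart.

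In units of 1000000 counts, library totals were 16.8 to 52.6 in the table that holds the wild-type libraries and the EGFP pair of day 6. They were 23.1 and 24.6 for the EGFP pair of day 14, and 10.5 to 13.9 in the Yy1 experiment. The wild-type day 14 and day 28 libraries stood apart, with 11823 and 9886 genes above 0 counts against 16009 to 17321 in sham and on days 1 and 6. Homeostatic microglia markers, 11 genes such as P2ry12 and Tmem119, were above 0 in every library. Levels are counts per 1000000 (CPM) scaled by the trimmed mean of M values (TMM) within each table, so levels are not set against each other across tables. With 1 library per group, no test was possible for the wild-type days or for either EGFP day. Those comparisons give log2 ratios of CPM + 1, which understate the change of low genes, and a size rule stood in for a test. It asked for a log2 ratio of at least 2 in size between days, or 1 between EGFP states, and for 20 CPM or more in either library. Fold intervals are exact 95% conditional binomial intervals with counts halved, since even numbers made up 68.7% to 90.9% of the counts from 1 to 20 in these tables, and they cover counting error only. In bulk RNA, fewer cells of a type and less RNA per cell cannot be told apart.

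The time course shows how the class II genes stood from the sham brain to day 28. The chain genes, Cd74 and Ciita were low in sham, higher on day 1, lower again on days 6 and 14, and at their highest wild-type level on day 28, while the H2-DM genes followed another order. All 4 comparisons with sham share the same sham library. By the size rule, 4 members were higher than sham on day 1 (H2-Aa, H2-Eb1, H2-Ab1 and Cd74), where 5.59% of all genes considered were higher. On day 6 the count was 1 (H2-Aa; 6.25% of all genes). On day 14 no member was past the rule above sham (12.9% of all genes were) and 1 was past it below (H2-DMa; 6.82% of all genes). On day 28, 5 members were higher (H2-Aa, H2-Ab1, H2-Eb1, Cd74 and Ciita), where 11.1% of all genes were. The median log2 ratio of the 8 members was 2.27, 1.03, -0.77 and 5.92 on days 1, 6, 14 and 28, and that of all genes considered was 0.00, -0.09, -0.03 and 0.15.

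H2-Aa, which encodes the alpha chain of the I-A molecule, stood at 5.96 CPM in sham, then at 69.6, 40.5, 0.54 and 1189 CPM on days 1, 6, 14 and 28. Day 28 was the highest and day 14 the lowest, where the level rested on 10 counts. H2-Aa on day 28 was 199-fold the sham level (interval 171 to 235) and on day 1 it was 11.7-fold (9.92 to 13.8). The counting interval of the day 14 level was 0.18 to 1.27 CPM, below the sham level.

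H2-Ab1, the beta chain partner of H2-Aa, stood at 4.05, 30.6, 16.6, 9.79 and 635 CPM from sham to day 28. The order of the days was that of H2-Aa except on day 14, where H2-Ab1 was above sham (fold 2.42, interval 1.81 to 3.23) and rested on 180 counts. Per kilobase of exon, H2-Aa stood at 0.995 times H2-Ab1 in sham, 1.54 times on day 1, 1.65 on day 6 and 1.27 on day 28, against 0.0376 times on day 14. The wild-type day 14 library was the one in which the partner chains stood furthest from each other.

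H2-Eb1, the beta chain of I-E, stood at 3.24 CPM in sham and at 35.4, 16.6, 0.33 and 421 CPM on the days after stroke. Its order across the days was that of H2-Aa, with 6 counts on day 14. On day 28 it was 130-fold the sham level (interval 105 to 163). H2-Ea-ps, the pseudogene of its alpha chain partner, was at 0 CPM in sham and on days 6, 14 and 28, and at 0.04 CPM on day 1.

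Cd74 encodes the invariant chain. Its levels were 26.4 CPM in sham and 158, 78.3, 49.5 and 2144 CPM on days 1, 6, 14 and 28. Every day after stroke was above sham, by 5.98-fold on day 1 (interval 5.51 to 6.49), 1.88-fold on day 14 (1.66 to 2.12) and 81.3-fold on day 28 (75.4 to 87.8). On day 14 Cd74 stood at 206 times H2-Aa per kilobase, against 4.08 to 10.01 times in the other wild-type libraries.

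Ciita, the coactivator gene, stood at 1.24 CPM in sham and at 7.95, 2.23, 1.20 and 104 CPM on days 1, 6, 14 and 28. Sham and day 14 were not told apart by counting error (fold 0.968, interval 0.441 to 1.96), and day 28 was 84.1-fold above sham (59.6 to 123). Day 1 was 6.43-fold above sham (4.43 to 9.60) but under the 20 CPM that the size rule asks for. Dexi, its overlapping gene, stood at 11.1, 3.91, 6.41, 0 and 4.91 CPM in the same libraries, in another order.

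In sham, H2-DMb1 stood highest of the 8 per kilobase, at 18.4 CPM, ahead of Cd74 at 15.7 and H2-DMa at 12.7. Without division by length, H2-DMa was the highest of the 8 in sham. H2-DMa, the alpha chain of the peptide exchanger, stood at 44.0 CPM in sham and at 19.9, 36.4, 0.22 and 89.0 CPM on days 1, 6, 14 and 28. Day 14 was far below every other library, with 4 counts against 2345 in sham, and day 28 was 2.03-fold above sham (interval 1.86 to 2.21). Brd2, which shares exonic bases with it, stood at 307 to 408 CPM in these 5 libraries.

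H2-DMb1, a beta chain of the exchanger, stood at 30.9 CPM in sham and at 20.5, 21.6, 10.2 and 35.8 CPM on the same days. It had the narrowest range of the 8 members, and day 28 was 1.16-fold sham (interval 1.03 to 1.31). H2-DMb2, the other beta chain, stood at 5.90, 1.43, 2.59, 11.97 and 0.39 CPM, so that its highest wild-type level was on day 14 and its lowest on day 28, the reverse of H2-Aa and H2-Eb1. Day 14 was 2.03-fold sham (1.57 to 2.60), while the day 28 level rested on 9 counts.

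**Figure D1:**
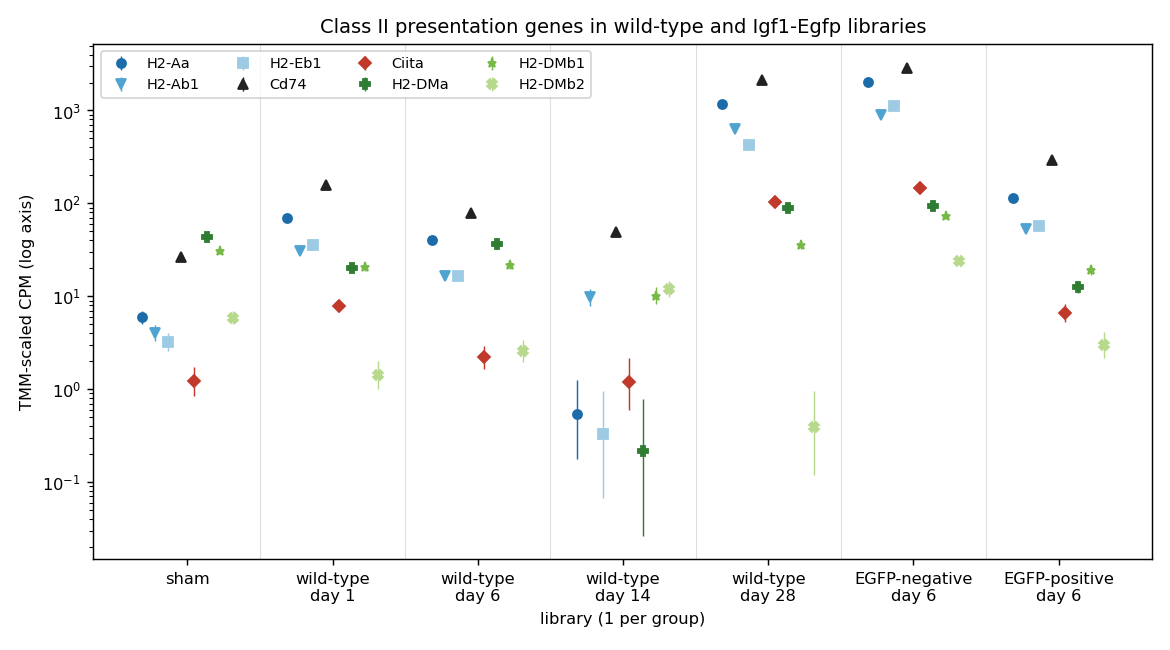
Level of each of the 8 class II genes (TMM-scaled CPM, log axis) in the 7 libraries of one table, 1 library per group; lines are exact 95% counting intervals with counts halved. H2-Aa, H2-Eb1 and H2-DMa fall under 1 CPM on wild-type day 14, and H2-Aa, H2-Ab1, H2-Eb1, Cd74 and Ciita are highest on day 28 and in EGFP-negative cells on day 6.

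Between the late days, 6 of 8 members were past the size rule above their day 14 level on day 28, where 14.6% of all genes considered were. They were H2-Aa, H2-Eb1, H2-DMa, H2-Ab1, Ciita and Cd74, with log2 ratios of 9.59, 8.32, 6.21, 5.88, 5.58 and 5.41. The median over the 8 members was 5.73 and that over all genes 0.16. The ratios of H2-Aa, H2-Eb1 and H2-DMa rest on 4 to 10 counts on day 14, and both libraries detected fewer genes than the other wild-type libraries.

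The make-up of the 8 genes differed between libraries more than their sum alone shows. Per kilobase of exon, the 3 H2-DM genes held 62.6% of the summed level in sham and 11.6%, 25.5%, 27.8% and 2.24% on days 1, 6, 14 and 28. The 3 chain genes held 8.73%, 29.9%, 26.3%, 8.83% and 36.8%, and Cd74 held 28.5%, 58.0%, 47.9%, 63.1% and 60.5%. By RNA per kilobase, the H2-DM genes outweighed the 3 chain genes by 7.17 to 1 in sham and by 3.14 to 1 on day 14. On day 28 there were 0.0609 parts of H2-DM RNA to 1 of chain RNA. These sums include H2-Eb1 and do not measure protein.

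**Figure D2:**
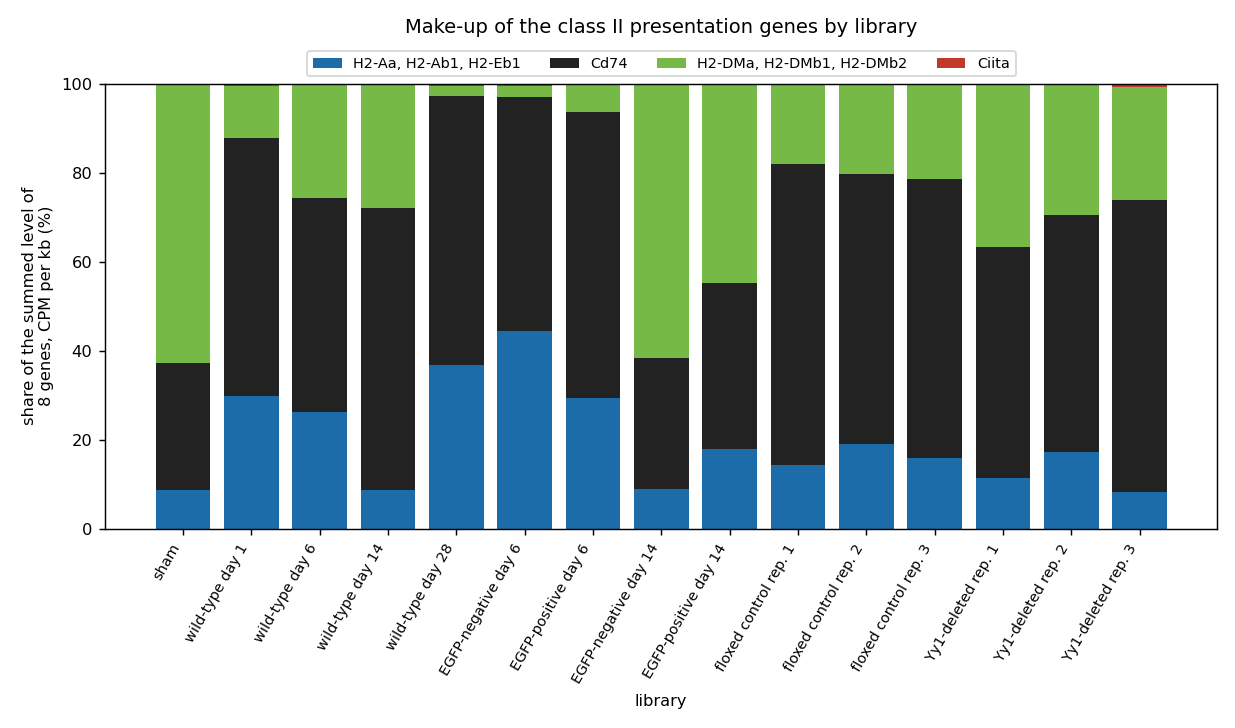
Share (%) of the summed level per kilobase of exon held by the 3 chain genes, Cd74, the 3 H2-DM genes and Ciita in each of the 15 libraries. The H2-DM share is largest in sham (62.6%) and in EGFP-negative cells on day 14 (61.6%) and smallest on wild-type day 28 (2.24%).

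Genes of the rest of the pathway did not stand in the same order across the days. H2-Ob, a chain of the H2-DO inhibitor of H2-DM, was past the size rule below sham on day 1 (5.81 against 32.9 CPM) and on day 14 (3.26 CPM), and H2-Eb2 was past it above sham on day 28 (22.6 against 0.15 CPM). These were the changes past the rule among the 4 measured other class II loci. Of 7 promoter factors (RFX, NF-Y and CREB1 subunits) 0 were past the rule on days 1, 6 and 14 and 1 was higher on day 28, Nfyb, an NF-Y subunit, at 89.2 against 19.7 CPM. Of 10 genes of the interferon gamma axis and the inducers of Ciita, 0 were past it on days 1, 6 and 14 and 1 was higher on day 28, the kinase gene Jak2, at 475 against 108 CPM. Ifng itself was at 0 counts in sham and on days 1, 14 and 28, and at 2 counts on day 6.

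None of 7 endosomal processing genes was past the size rule on any day against sham. Ctss, the cathepsin S gene whose protease cuts the invariant chain, stood at 2893 CPM in sham and between 1626 CPM (day 1) and 2916 CPM (day 6) after stroke. Of 6 costimulatory and coinhibitory genes, Cd274 (PD-L1) was higher on day 1, at 154 against 12.7 CPM in sham, and Cd80 was lower on day 14. Of 10 class I presentation genes, 0, 1, 1 and 3 were higher on days 1, 6, 14 and 28, the latter being H2-D1, Nlrc5 (the class I counterpart of Ciita) and Psmb9, with a list median log2 ratio of 1.24 on day 28. Of 15 type I interferon-stimulated genes, 4, 9, 11 and 7 were higher on days 1, 6, 14 and 28, so the day with most of them was day 14. Any link between these genes and the class II levels was not tested.

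Marker lists of other cell types stood in several orders across the days. Of 14 dendritic cell markers, 10 were past the rule above sham on day 28, with Flt3 at 131 against 0.77 CPM, Cd209a at 105 against 0.15 CPM and Ccr7 at 162 CPM against 0 counts, while Xcr1, Itgae and Batf3 were at 0. Their summed level was 51.1 CPM in sham and 127, 74.6, 107 and 971 CPM on days 1, 6, 14 and 28. Of 12 monocyte markers 7, 3, 2 and 11 were higher on days 1, 6, 14 and 28, with sums of 67.8 CPM in sham and 1690, 1505, 2191 and 2719 CPM after stroke. Of 9 measured B cell markers 1 was higher on day 28 (Fcmr), with Cd79a, Ms4a1 and Pax5 at 0, and of 11 T and NK cell markers 1 was higher (Lck), with Cd3e, Cd3d and Cd3g at 0. The dendritic cell and monocyte sums were not lowest on day 14, where H2-Aa, H2-Eb1 and H2-DMa were, but few markers carried those sums. Past the rule above sham on day 14 were Itgax of the dendritic cell list and Fn1 and Itga4 of the monocyte list. Cd209a, Xcr1, Btla, Kmo, Clec10a, S100a4 and Ifitm6 were at 0. The median log2 ratio to sham on that day was -0.17 for dendritic cell and 0.68 for monocyte markers.

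The sums of neutrophil markers stood in the order of H2-Aa. They were 705 CPM in sham and 2399, 846, 473 and 2890 CPM on days 1, 6, 14 and 28. Gene by gene the order was another one, with 8, 4, 1 and 5 of 10 measured markers past the rule above sham. The median log2 ratio of the list was 4.46, 1.68, -0.82 and 3.66 on these days, highest on day 1 and not on day 28. Endothelial and mural markers stood otherwise, with sums of 240 CPM in sham and 379, 2949, 5431 and 30.7 CPM after stroke. Of these 9 markers 1, 9, 9 and 0 were higher on days 1, 6, 14 and 28, and 4 were lower on day 28. Homeostatic microglia markers were below sham on every day, with sums of 30720 CPM in sham and 6893, 14731, 8504 and 13828 CPM after stroke, and 8, 0, 6 and 1 of 11 were past the rule below sham. The part of any of these cell types in the class II levels was not tested.

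**Figure D3:**
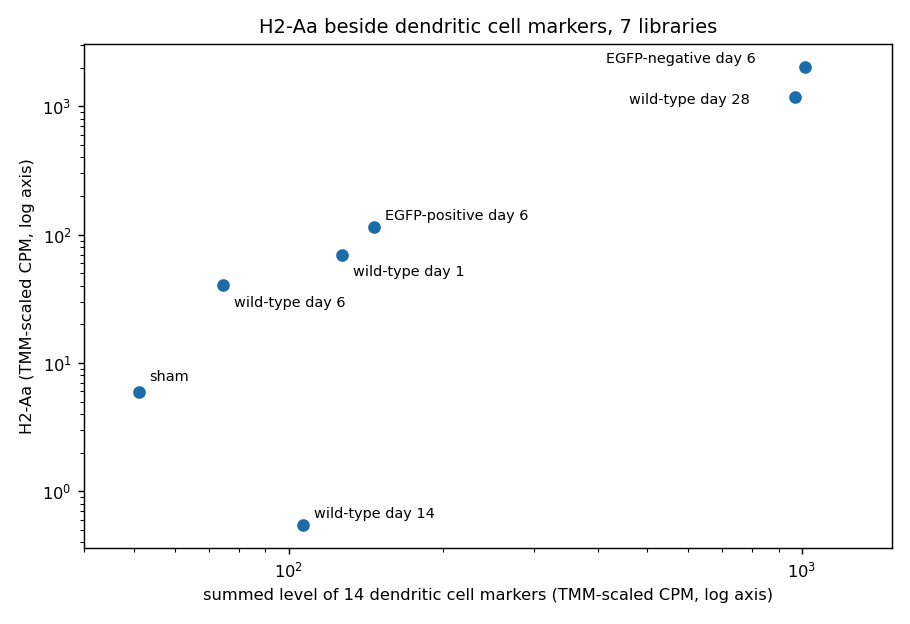
H2-Aa (TMM-scaled CPM, log axis) against the summed level of 14 dendritic cell markers (log axis) in the 7 libraries of one table, 1 point per library. Wild-type day 28 and EGFP-negative day 6 are highest on both axes, and wild-type day 14 holds 0.54 CPM of H2-Aa beside a marker sum of 107 CPM. On wild-type day 14, 5 of the 14 markers are at 0.

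The genes whose levels were most like H2-Aa over these 7 libraries were ranked by Pearson's r of log2(CPM + 1) among 9380 genes with at least 20 CPM in 1 library. The 5 nearest outside the members were Ccr2, the chemokine receptor gene of inflammatory monocytes (r = 0.990), Cyp4f16 (0.985), Zc3hav1 (0.983), Hnrnpf (0.979) and Itgal (0.978). Ccr2 levels were 7.55 CPM in sham, 51.0, 14.2, 0.92 and 582 CPM on days 1, 6, 14 and 28, and 698 and 64.5 CPM in EGFP-negative and EGFP-positive cells. Among the members, H2-Eb1 was the nearest gene of all (r = 0.997), Cd74, Ciita and H2-Ab1 ranked 48, 54 and 57, H2-DMb1 and H2-DMa ranked 498 and 629, and H2-DMb2 ranked 5600 (r = -0.17). The 5 genes most like Ciita were Kmo (0.996), Clec10a (0.995), Fem1c (0.987), Lilra6 (0.986) and Plbd1 (0.984), and among the members H2-Ab1 ranked 5, Cd74 7, H2-Eb1 38 and H2-Aa 60. The libraries differ in depth and in cell markers together, and 2 of the 7 carry most of the range, so these values only describe likeness.

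The EGFP comparison asks how class II genes differ between cells with and without Igf1 reporter signal. On day 6 all 8 members were past the size rule below the EGFP-negative level in EGFP-positive cells, where 11.9% of all genes considered were lower. In EGFP-negative and then EGFP-positive cells, H2-Aa stood at 2029 and 114 CPM, H2-Ab1 at 891 and 52.9, and H2-Eb1 at 1114 and 57.4. The EGFP-negative level was 17.7-fold higher for H2-Aa (log2 ratio -4.14 on the CPM + 1 scale), 16.8-fold for H2-Ab1 (-4.05) and 19.4-fold for H2-Eb1 (-4.26). Cd74 stood at 2886 and 296 CPM (log2 ratio -3.28) and Ciita at 148 and 6.68 CPM (-4.27).

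The H2-DM genes showed smaller ratios in the same direction. In the same order of cells, H2-DMa stood at 92.7 and 12.6 CPM (log2 ratio -2.78), H2-DMb1 at 72.3 and 19.2 (-1.86) and H2-DMb2 at 23.8 and 3.01 (-2.63). The median of the 8 members was -3.67, against -0.04 for all genes. Both EGFP libraries of day 6 held more H2-Aa, H2-Ab1, H2-Eb1, Cd74, Ciita and H2-DMb2 than the wild-type day 6 library of the same table. In the wild-type library these stood at 40.5, 16.6, 16.6, 78.3, 2.23 and 2.59 CPM. For these genes it thus did not lie between the 2 states. For H2-DMa and H2-DMb1 the wild-type library held more than EGFP-positive cells, at 36.4 and 21.6 CPM, and less than EGFP-negative cells. For H2-DMb1 and H2-DMb2 the counting intervals of EGFP-positive cells and wild-type overlapped.

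Marker lists moved with this comparison. In EGFP-positive cells on day 6, 10 of 14 dendritic cell markers, 10 of 12 monocyte markers and 9 of 10 measured neutrophil markers were past the rule below the EGFP-negative level. The dendritic cell sum was 1012 CPM without and 146 CPM with reporter signal, and in the EGFP-positive library Flt3, Cd209a, Ccr7, Xcr1 and Btla were at 0. The monocyte sums were 6100 and 1831 CPM and the neutrophil sums 11926.5 and 439 CPM. The wild-type day 6 library held 74.6, 1505 and 846 CPM of dendritic cell, monocyte and neutrophil markers. In the other direction, 6 of 12 border macrophage markers were higher in EGFP-positive cells, among them Pf4 and Ms4a7, and 3 of 7 processing genes were, Ctsb (11809 against 2670 CPM), Ctsd (16009 against 4902) and Lgmn (2978 against 1455). The promoter factors had 0 of 7 past the rule, and Irf1, Ifngr1 and Jak2 were lower in EGFP-positive cells. The part of infiltrating cells in the EGFP-negative levels was not tested.

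On day 14 the 2 EGFP states stood differently. Past the size rule were 2 members, H2-Ab1 and H2-Aa, both higher in EGFP-positive cells, where 11.2% of all genes considered were higher. H2-Aa stood at 19.1 CPM without and 53.1 CPM with reporter signal (fold 2.78, interval 2.39 to 3.24), and H2-Ab1 at 44.0 and 158 (fold 3.59, 3.26 to 3.95). H2-Eb1 stood at 24.8 CPM in both (fold 1.00, 0.848 to 1.18), so the 3 chain genes were not alike. Cd74 stood at 192 and 309 CPM (log2 ratio 0.68).

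Ciita was at 0 counts in EGFP-negative cells on day 14, which allows up to 0.29 CPM at the upper end of its counting interval, and at 64 counts (2.87 CPM) in EGFP-positive cells, under the 20 CPM of the size rule. H2-DMa stood at 277 and 369 CPM, H2-DMb1 at 250 and 175 CPM and H2-DMb2 at 18.0 and 14.0 CPM, all within the rule. The median over the 8 members was 0.55 and over all genes 0.03. H2-DM genes held 61.6% of the summed level per kilobase without reporter signal and 44.6% with it, and H2-Aa stood at 0.293 and 0.227 times H2-Ab1. The dendritic cell sums were 64.2 and 132 CPM, with 1 of 14 markers higher and 1 lower, and the monocyte sums 108 and 560 CPM, with 2 of 12 higher. Neutrophil markers had 5 of 10 higher in EGFP-positive cells (sums 1241 and 2131 CPM), endothelial and mural markers 6 of 9 (30.7 and 393 CPM) and type I interferon-stimulated genes 7 of 15. In EGFP-negative cells 8 of the 10 neutrophil markers were at 0, against 1 in EGFP-positive cells, so the sum without reporter signal rests on few genes. In the same order, 8 and 1 dendritic cell, 8 and 2 monocyte and 6 and 1 endothelial and mural markers were at 0. The part of these differences in the H2-Aa and H2-Ab1 levels was not tested. All 11 T and NK cell markers were at 0 in EGFP-negative cells.

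**Figure D4:**
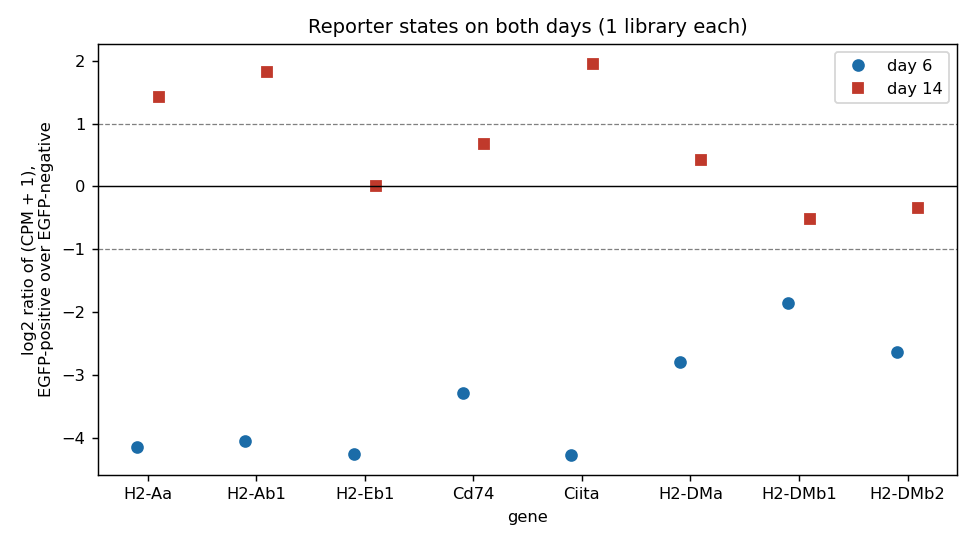
Log2 ratio of (CPM + 1), EGFP-positive over EGFP-negative, for each member on day 6 and on day 14, 1 library per state and day; dashed lines mark the ratio of 1 in either direction that the size rule asks for. All 8 members lie between -4.27 and -1.86 on day 6, and on day 14 they lie between -0.51 and 1.95.

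Both days together gave the only fit of the EGFP states, with day as a term and 1 residual degree of freedom. With 1 library per state and day, that degree of freedom holds how far the EGFP difference changes between the days, not a spread between replicates. Genes on opposite sides on the 2 days, such as H2-Aa and H2-Ab1, therefore get wide errors. By edgeR's quasi-likelihood test 0 of 8 members and 0 of 12842 genes passed an adjusted p of 0.05 (0% called; 193 genes at an unadjusted p under 0.05). DESeq2 called 35 genes, none of them a member, and limma-voom called 0. The member estimates had wide errors, with log2 fold changes of -1.34 (SE 2.08) for H2-Aa, -2.14 (SE 1.41) for H2-Eb1 and -1.21 (SE 0.49) for H2-DMb1, each at an edgeR adjusted p of 1.

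The Yy1 comparison asks how class II genes differ when the transcription factor gene Yy1 is deleted in Cx3cr1-expressing cells, on day 6. Yy1 levels were 75.9, 51.0 and 57.8 CPM in controls 1 to 3, against 32.4, 28.8 and 38.6 CPM in Yy1-deleted replicates 1 to 3. The groups did not overlap, and the log2 fold change of -0.88 (SE 0.28) had an edgeR adjusted p of 0.128. All 8 members passed the filter on low counts, and 0 of 8 were called by edgeR at an adjusted p of 0.05, where 2.6% of the 12387 genes tested were called. Of the 8, 2 had groups that did not overlap and were higher in the Yy1-deleted libraries, H2-DMa and H2-DMb1, and 9.45% of all genes tested did so.

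The 3 controls held 16.6, 25.9 and 36.1 CPM of H2-DMa, and the 3 Yy1-deleted libraries 51.4, 75.0 and 38.9 CPM. Every Yy1-deleted library was above every control, the nearest by 38.9 against 36.1 CPM. The means were 26.2 ± 9.77 and 55.1 ± 18.3 CPM (SD, n = 3), with a log2 fold change of 1.08 (SE 0.35, 95% interval 0.33 to 1.83) and an edgeR adjusted p of 0.139. Without the filter on low counts the edgeR adjusted p was 0.0427, and over all 13 alternatives it ran from 0.0427 to 0.536. Brd2, which overlaps it on the other strand, stood at 417 to 547 CPM among controls, against 481 to 545 CPM after deletion.

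For H2-DMb1 the controls held 19.4, 17.2 and 20.4 CPM, against 28.5, 40.1 and 25.4 CPM after deletion. All 3 Yy1-deleted values were above the controls, with a log2 fold change of 0.72 (SE 0.38, 95% interval -0.08 to 1.53) and an edgeR adjusted p of 0.432. H2-DMb2 stood at 0.67, 2.76 and 5.30 CPM against 1.37, 3.93 and 2.85 CPM, with groups that overlapped and an interval of -3.10 to 2.91.

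The controls held 21.1, 22.8 and 31.2 CPM of H2-Aa, against 9.81, 39.7 and 12.3 CPM after deletion. Yy1-deleted replicate 2 was the highest of all 6 libraries and the other 2 the lowest, so the groups overlapped, and the log2 fold change was -0.28 (SE 0.50, 95% interval -1.35 to 0.79; edgeR adjusted p = 0.897), or -1.18 without that replicate. The same replicate was highest for H2-Ab1, at 9.52, 30.9 and 13.6 CPM in the Yy1-deleted group against 5.69, 18.1 and 15.4 CPM in controls (log2 fold change 0.47, interval -0.78 to 1.71). H2-Eb1 was even among controls, at 11.1, 10.3 and 9.34 CPM, and spread in the Yy1-deleted group, at 7.85, 10.7 and 1.18 CPM (log2 fold change -0.63, interval -2.37 to 1.11).

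Cd74 was the member with the narrowest interval. Its controls held 106, 98.8 and 126 CPM, against 78.1, 146 and 121 CPM after deletion, a log2 fold change of 0.07 (SE 0.23, 95% interval -0.41 to 0.55; edgeR adjusted p = 0.951), and -0.04 under total count scaling. Ciita was low and uneven among replicates, at 0.33, 2.94 and 0.49 CPM against 1.28, 0.16 and 8.36 CPM, with a log2 fold change of 1.38 (interval -2.24 to 5.01) that was -0.80 without Yy1-deleted replicate 3. Neither gene separated the groups.

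**Figure D5:**
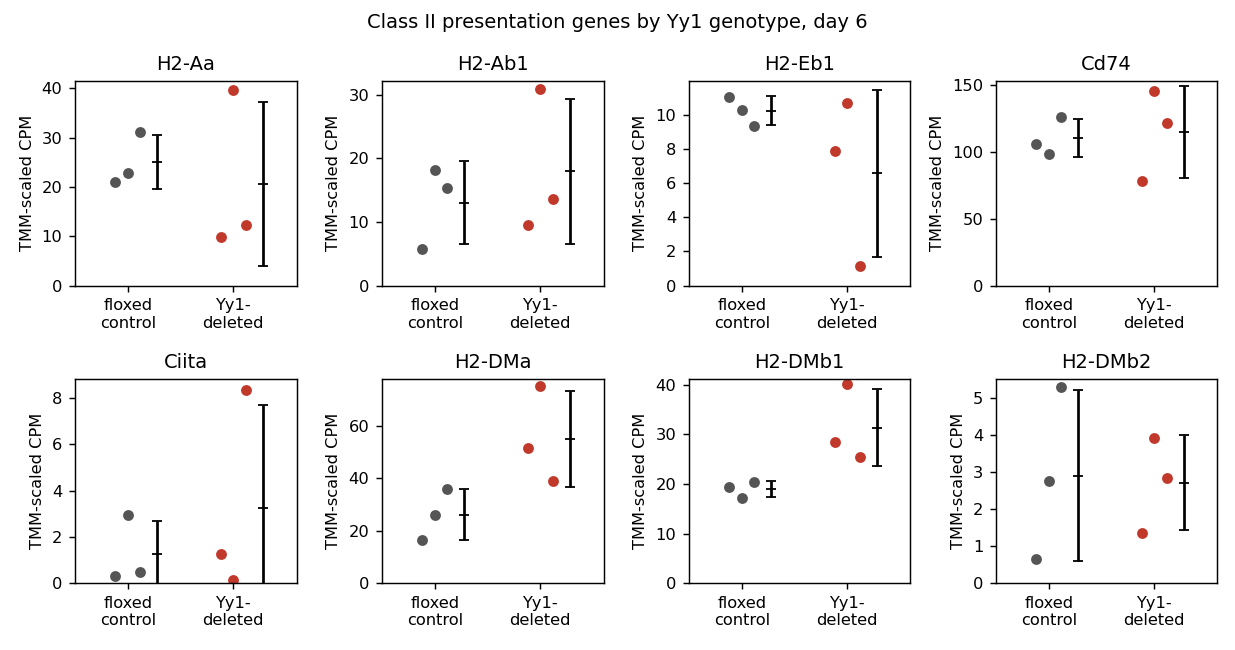
TMM-scaled CPM of each member in the 3 floxed control and 3 Yy1-deleted libraries on day 6; points are libraries in replicate order and bars are mean ± SD, ending at 0 where the SD passes it. H2-DMa and H2-DMb1 are the 2 panels without overlap, and for H2-Aa all 3 controls, from 21.1 to 31.2 CPM, lie inside the range of the Yy1-deleted group.

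The ratio of the summed H2-DM level to the summed chain level per kilobase was 1.24, 1.05 and 1.35 among controls, against 3.16, 1.71 and 3.07 after deletion. The groups did not overlap, and the mean log2 ratio was 0.27 ± 0.18 against 1.35 ± 0.50 (SD, n = 3), a difference of 1.08. An exact two-sided permutation test gave p = 0.1, the smallest that 20 splits of 3 against 3 libraries allow. This ratio was chosen after its values had been seen, so the permutation p-value cannot serve as support for a difference.

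Around the members, edgeR called 1 of 7 promoter factors higher in Yy1-deleted libraries, Nfya, the NF-Y subunit that binds the Y box, at 109 ± 18.1 against 201 ± 9.83 CPM (SD, n = 3; log2 fold change 0.89, adjusted p = 0.0109). Among Ciita inducers 2 of the 9 tested rose, Irf8 (log2 fold change 0.66, edgeR adjusted p = 0.0123) and Spi1, the PU.1 gene (0.81, 0.0294). Of 7 processing genes 3 rose, Sppl2a (0.69), which clears the last membrane stub of the invariant chain, Lgmn (0.48) and Ctsd (0.42), and 1 of 10 class I genes did, B2m (0.51). Neither of the 2 other class II loci tested nor any of the 5 costimulatory genes tested was called. Without floxed control replicate 1 none of these 7 genes was called (edgeR adjusted p from 0.0628 to 0.171). Nfya kept its call without each other library, Irf8 lost it without control 2 or 3, Sppl2a without Yy1-deleted 3, Ctsd without control 2 or Yy1-deleted 3, Lgmn without control 2 or Yy1-deleted 2 or 3, B2m without control 2 or Yy1-deleted 1 or 3, and Spi1 without each library but Yy1-deleted 3. Under total count scaling Ctsd, Lgmn, B2m and Spi1 lost their calls (edgeR adjusted p from 0.0580 to 0.0725).

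Cell markers differed between the genotypes too. All 11 homeostatic microglia markers rose by the edgeR test, and their sum was 10650.3 to 11828 CPM among controls, against 18799 to 20489 CPM after deletion. Of 11 monocyte markers tested 2 fell, F13a1 and Chil3, with sums of 924 to 1325 against 661 to 764 CPM. Chil3 was not called without any one control or without Yy1-deleted 2 or 3. Border macrophage markers had 1 of 10 tested lower, Stab1 (log2 fold change -0.71, edgeR adjusted p = 0.0153), with sums of 1435 to 1779 against 1013 to 1234 CPM. Neutrophil markers had 1 of 9 tested higher, Csf3r (log2 fold change 0.89, edgeR adjusted p = 0.00138), with sums of 778 to 881 against 1197 to 1507 CPM. The median log2 fold change of these 9 was -0.01, against -0.02 for all genes tested, so the list was not higher as a set. Stab1 lost its call without floxed control replicate 1 (edgeR adjusted p = 0.192) or Yy1-deleted replicate 1 (0.0780). Of 8 dendritic cell markers tested none was called, with sums of 61.6 to 97.0 against 76.9 to 94.5 CPM. The part of these differences in the H2-DM levels was not tested.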

How the data were processed

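The members and the gene lists were chosen with earlier results of these data known. Read counts per gene came in 2 tables of whole counts deposited by the authors without normalization. The Yy1 table, also deposited by the authors, held fractional values (3.55% to 4.75% of values per library), which were treated like expected counts and rounded to whole numbers. The submitters' processing notes name STAR, featureCounts, edgeR, mm10 and GRCm38; versions, roles and annotation are not given in the sources used here. Even numbers made up 44.2% to 48.2% of the Yy1 counts from 1 to 20, against 68.7% to 90.9% elsewhere. No deposited column was left unused. A homeostatic marker of the original list is not reported here and was left out of its sums and counts.

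Counts were TMM-scaled per table with edgeR 4.0.16 in R 4.3.3. For the Yy1 groups, the quasi-likelihood test of edgeR (glmQLFTest, two-sided) followed filterByExpr, with Benjamini-Hochberg adjustment over all genes tested and a threshold of 0.05. The 6 Yy1 libraries are labelled as biological replicates. The EGFP states of both days were fitted likewise with day as a term. Alternatives were DESeq2 1.42.0, limma-voom (limma 3.58.1), other scalings, pseudocounts and minimum levels, and libraries left out. On simulated data for the Yy1 comparison, the test recovered 91% of 100 genes changed 4-fold and 11% of 100 changed 2-fold among 12957 genes. It made 3 false calls. Every simulated gene had the same assumed dispersion, not estimated from these libraries, so these shares do not give the power for the members. Exonic lengths and overlaps came from GENCODE M21, and promoters and motifs from RefSeq. The length of a gene was that of all its annotated exons joined, whichever transcripts were expressed. Levels per kilobase and their ratios between genes depend on that choice.

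Named genes were the 8 members, Yy1, up to 4 genes per list and comparison (those past the threshold or size rule with the largest change, otherwise those with the highest level), and the 5 genes most like H2-Aa and most like Ciita. Outside this rule, Brd2 and Dexi were added as overlapping genes, and list genes at 0 counts, Ifng, H2-Ea-ps and Ctss were named after their values were seen.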

Additional observations from a re-analysis of the deposited data

Results flagged for a closer look

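H2-Aa and H2-Ab1 stood on opposite sides in the EGFP comparison on the 2 days. The log2 ratio of EGFP-positive over EGFP-negative cells was -4.14 on day 6 and 1.43 on day 14 for H2-Aa, and -4.05 on day 6 and 1.82 on day 14 for H2-Ab1. With 1 library per state and day, the difference between the days was not tested. The day 14 libraries came in a table of their own and were sequenced on another instrument, so day and instrument cannot be told apart.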

How the results depend on the processing

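No member past the size rule changed side under the other scalings or pseudocounts. In the Yy1 comparison, where 0 members were called, H2-DMa and H2-DMb1 (higher) and H2-Eb1 (lower) kept their sign under all 13 alternatives, while H2-Aa, H2-Ab1, Cd74, Ciita and H2-DMb2 did not. Counts of members past the size rule moved with the minimum level. At a minimum of 50 CPM, 2 members were higher on day 1, 0 higher on day 6 and 0 lower on day 14. At 5 CPM or with no minimum, 2 were higher on day 6, 2 lower on day 14, 1 lower on day 28 against sham and 1 lower on day 28 against day 14. Counts over all genes moved with it too, such as 750 higher on day 1 at 5 CPM and 203 at 50 CPM against 403. The shares of all genes at these minimum levels are not given here. The member counts at other minimum levels thus show only how the rule moves and are not a result about the members. In the Yy1 comparison edgeR called 192 genes higher and 130 lower, with 1748 at an unadjusted p under 0.05. With no filter the counts were 309 and 266 (and 1 member, H2-DMa, at adjusted p = 0.0427), with DESeq2 380 and 327, and with limma-voom 289 and 192. Leaving out each library gave 58 to 166 higher and 39 to 151 lower, the lowest without floxed control replicate 1, and 0 members. Without control 2 the counts were 98 and 67, and without control 3 they were 137 and 78. The adjusted p of H2-DMa ran from 0.0427 to 0.536 over 13 alternatives. Total count scaling gave 128 higher and 192 lower, with the median of all genes at -0.12 against -0.02. Same-numbered libraries did not deviate together (r from -0.0384 to -0.0058), which shows no shared effect but cannot exclude a pairing. The numbers were not treated as pairs in the main fit. With the replicate block, 219 were higher and 194 lower, and H2-DMa had an adjusted p of 0.0991. The log2 difference of the H2-DM to chain ratio was 0.922 to 1.37 with each library left out, 1.13 without H2-DMb2, 0.887 without H2-Eb1 and 1.64 for H2-DMa over H2-Aa alone, alternatives chosen after seeing the data. For both EGFP days together DESeq2 called 22 higher and 13 lower, against 0 and 0 by edgeR, and the Ciita estimate was 0.10 by edgeR and -3.76 by limma-voom. On wild-type day 14, H2-Aa, H2-Eb1, H2-DMa and Ciita rest on 4 to 22 counts, so these levels are imprecise. Why these counts are low was not tested.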
